A study of Mus musculus with 6 samples.

Results

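The mucus layer of the gut is secreted by goblet cells, and 7 genes that encode its secreted parts or mark these cells were followed here: Muc2, Fcgbp, Clca1, Zg16, Agr2, Tff3 and Tpsg1. They were chosen by gene name, and each matched 1 of the 54012 genes of the deposited table. RNA sequencing had been done on 3 samples of intestinal tissue from wild-type mice (WT) and 3 from mice of the genotype TLR4ΔIEC, all aged 8 to 12 weeks. The series title places the tissue in the small intestine and the question in the loss of TLR4, which senses lipopolysaccharide of bacteria. The labels give neither the segment taken nor the Cre driver or allele behind TLR4ΔIEC, and they name no treatment. Values are TPM, transcript abundances scaled for gene length and for the total of each library, so that they sum to the same total in each library and keep no read depth.

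Muc2 is the gel-forming mucin of the intestine: its chains are joined end to end by disulphide bonds, heavily glycosylated and unfolded into a net when goblet cells release them. Fcgbp and the metalloprotease Clca1 are secreted with it, the lectin Zg16 binds the cell wall of Gram-positive bacteria, and the trefoil peptide Tff3 is stored in the same granules. Agr2 is a protein disulphide isomerase of the endoplasmic reticulum that Muc2 needs for folding. Tpsg1 encodes tryptase gamma, a membrane-anchored serine protease described in mast cells that is also listed among goblet cell markers.

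All 7 genes were expressed in each library, and 6 of them read higher in every TLR4ΔIEC library than in any WT library. Agr2 was the exception. The means of the 6 were 1.52 to 3.16 times those of WT, with Muc2 first and Tpsg1 last, followed only by Agr2 at 1.08 times. None of the 7 passed an adjusted p of 0.05 in limma, fitted to log2(TPM + 1) of 13458 genes, where 0.119% of all genes did (0.0446% higher and 0.0743% lower). At an unadjusted p under 0.05 limma gave 6 of the 7, against 21.2% of all tested genes. Under other scalings it gave 3 to 6 of the 7, against 1611 to 1843 of the 13458 genes. Libraries lay apart in either direction in 27.6% of all tested genes and in the higher direction in 24.1%. The median log2 fold change of the 7 was 0.93, against 0.16 over all tested genes. With 3 libraries against 3, an exact two-sided permutation test of a single gene can give no p below 0.1, which it gave for each of the 6, and 0.8 for Agr2.

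The libraries differed in ways that touch these values. In TLR4ΔIEC replicate 2 fewer genes reached 1 TPM (12221, with 13197 to 13634 elsewhere), and it held the highest value of 5 of the 7 genes. Tlr4 itself, the targeted gene, read 0.57 to 0.70 TPM in WT and 1.22 to 4.81 TPM in TLR4ΔIEC, so it does not check the labels, and every direction here compares libraries as labelled. Over all genes 16 passed, 6 higher and 10 lower. That split was 3 and 13 under median-of-ratios scaling, 4 and 14 under quantile normalization, 3 and 8 with TPM rescaled without the 20 highest genes, and 1 and 9 with TPM rescaled without alpha-defensin, mitochondrial and 18S-like genes. These scalings moved the median log2 fold change of all genes from 0.16 to −0.01, 0.02, 0.01 and −0.12. In whole tissue, fewer cells of a type and less RNA per cell cannot be told apart.

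Muc2 (ENSMUSG00000025515, chromosome 7, 141690340 to 141754693, plus strand, GRCm38, protein-coding) read 129.9, 89.2 and 94.1 TPM in WT replicates 1 to 3. In TLR4ΔIEC replicates 1 to 3 it read 305, 429 and 255 TPM. The lowest TLR4ΔIEC library was thus 1.96 times the highest WT library. WT averaged 104.4 ± 22.2 TPM and TLR4ΔIEC 329.6 ± 89.8 TPM (SD, n = 3 per genotype). In limma the log2 fold change came to 1.63 with an SE of 0.24 and an adjusted p of 0.0800. By its unadjusted p Muc2 stood at place 36 of the 13458 genes. Its call depended on the libraries used: the limma adjusted p was 0.0435 without TLR4ΔIEC replicate 1 and 0.325 without WT replicate 2, and over all alternatives it ran from 0.0406 to 0.325. GENCODE M21 tags this locus as fragmented in the assembly, and the table gives the gene a length of 13916 bases. Its level against other genes is therefore less sure than its ratio between libraries.

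Fcgbp (ENSMUSG00000047730, chromosome 7, 28071236 to 28120862, plus strand), a large protein of repeated von Willebrand D domains, was steady in WT, at 737, 723 and 688 TPM. It read 1331, 2511.5 and 2242 TPM in TLR4ΔIEC. Replicate 1 of TLR4ΔIEC lay nearest to WT, and the spread within TLR4ΔIEC, 30.5% of its mean, was far wider than the 3.53% within WT. In limma the log2 fold change came to 1.45 with an SE of 0.26 and an adjusted p of 0.0913. Without TLR4ΔIEC replicate 1 the limma adjusted p was 0.0131, the lowest of any alternative for any of the 7 genes, and the highest was 0.362. The neighbouring gene 9530053A07Rik, annotated as Fcgbp-like, could share reads with Fcgbp. It read at most 0.02 TPM in any library.

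Clca1 (ENSMUSG00000028255, chromosome 3, 145003817 to 145032776, minus strand), the protease that trims the mucus net, read 422, 329 and 524 TPM in WT. In TLR4ΔIEC it read 980.05, 952 and 809.8 TPM. The order of the TLR4ΔIEC libraries differed from that of Muc2 and Fcgbp, with replicate 1 highest, and Clca1 was the gene with the narrowest spread in TLR4ΔIEC (9.99% of the mean). Its log2 fold change in limma was 1.12, with an SE of 0.21 and an adjusted p of 0.0927. No tested relative lay apart and higher. Clca4b, a chloride channel regulator of villus enterocytes, averaged 617 ± 104 TPM in WT and 680.4 ± 170.1 TPM in TLR4ΔIEC, and Clca4a 397 ± 51.2 and 519.8 ± 159.4 TPM. Of the 6 tested genes of the family, Clca1 was the only gene whose TLR4ΔIEC libraries all lay above WT, and Clca3a2 the only gene whose libraries all lay below (2 genes lay below under each of the 4 other scalings), at 5.27 to 5.95 TPM in WT and 2.58 to 3.46 TPM in TLR4ΔIEC. None of the 6 passed in limma. Over all tested genes 24.1% lay apart and higher, a share near that of the family, and 3.53% lay apart and lower. Under the 4 other scalings 890 to 1728 of all 13458 tested genes lay apart and lower.

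**Figure D1:**
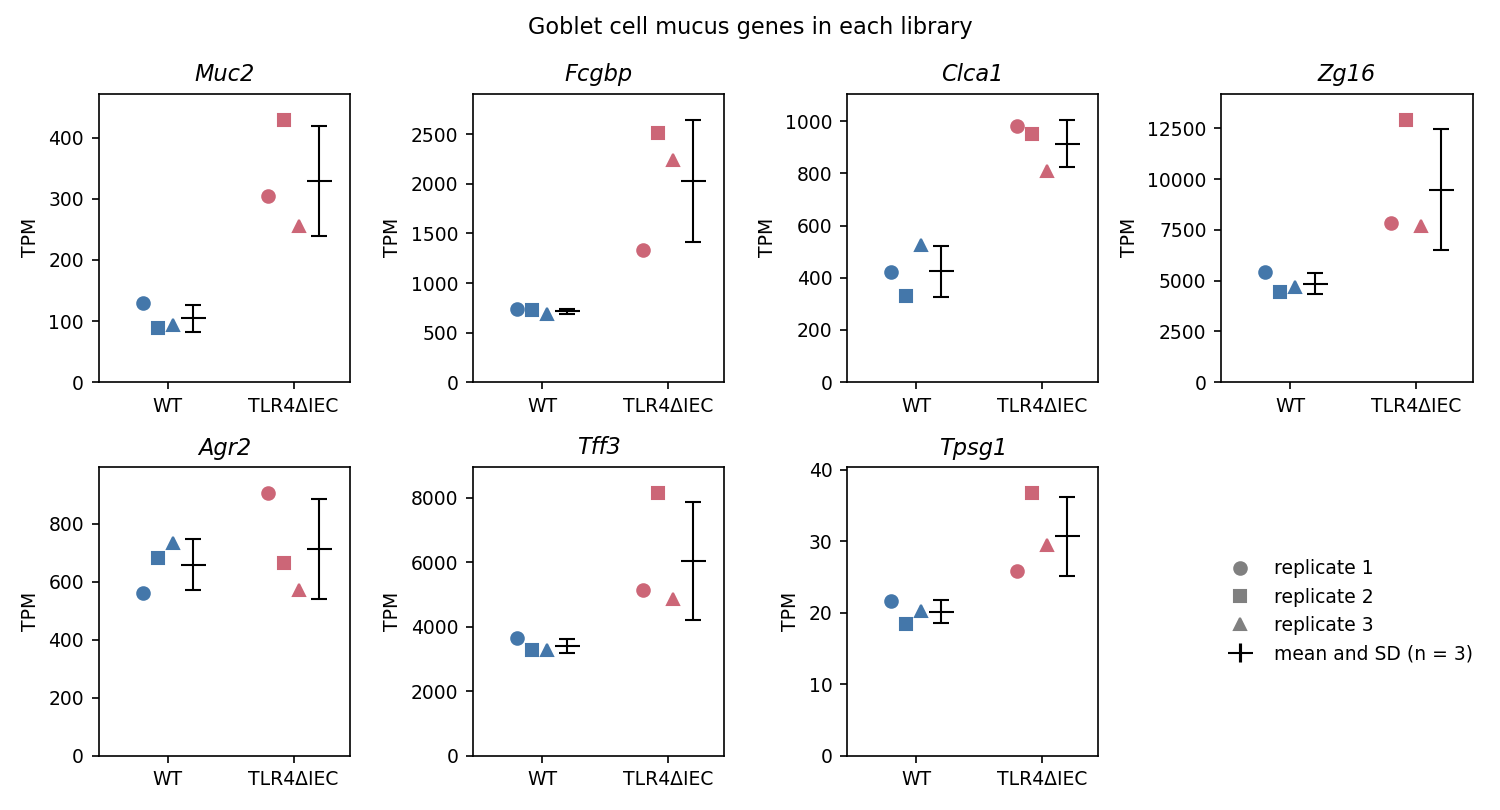
TPM of each of the 7 mucus genes by genotype, with circles, squares and triangles for replicates 1, 2 and 3, horizontal marks for the mean and error bars for the SD (n = 3). Each vertical axis starts at 0, and the groups overlap only for Agr2.

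Zg16 and Tff3 are small secreted proteins and stood far above the others in TPM, which are per length. Zg16 (ENSMUSG00000049350, chromosome 7, 127050156 to 127087328, minus strand) had levels of 5430.25, 4444 and 4682 TPM among WT libraries and of 7841, 12919 and 7678 TPM among TLR4ΔIEC libraries. Between the group means it moved from place 33 to place 10 among all genes by TPM. Tff3 (ENSMUSG00000024029, chromosome 17, 31125306 to 31129646, minus strand) had levels of 3644, 3273 and 3262 TPM in WT, while TLR4ΔIEC libraries were at 5124, 8135 and 4858 TPM. In both genes TLR4ΔIEC replicate 2 stood alone at the top and the other TLR4ΔIEC libraries lay closer to WT than to it. The log2 fold changes were 0.93 (SE 0.29, limma adjusted p = 0.153) for Zg16 and 0.79 (SE 0.27, limma adjusted p = 0.170) for Tff3. Without TLR4ΔIEC replicate 2 they were 0.68 and 0.56, with limma adjusted p = 0.203 and 0.224. The Zg16 model spans 2 genes of the other strand, of which the long noncoding Gm44939 was listed at 0 in all 6 libraries. The gastric trefoil gene Tff2 read at most 0.25 TPM.

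Agr2 (ENSMUSG00000020581, chromosome 12, 35992907 to 36004087, plus strand), the folding enzyme, was at 562, 680.1 and 733 TPM in WT; TLR4ΔIEC libraries were at 905, 663 and 572 TPM. Its groups overlapped across nearly their whole range: TLR4ΔIEC held the highest value, in replicate 1, and the other TLR4ΔIEC libraries fell inside the range of WT. The log2 fold change was 0.10 (95% confidence interval −0.42 to 0.61, limma adjusted p = 0.840). The sign was not stable, since it was negative under each of the 4 other scalings (−0.23 to −0.077), with array weights, and without WT replicate 1 or TLR4ΔIEC replicate 1. A fold change near that of Muc2 lies outside the interval.

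Tpsg1 (ENSMUSG00000033200, chromosome 17, 25369273 to 25374442, plus strand) was the lowest of the 7 by level, at 21.7, 18.45 and 20.2 TPM in WT. In TLR4ΔIEC it was at 25.8, 36.7 and 29.4 TPM. The lowest TLR4ΔIEC library was 1.19 times the highest WT library, the smallest gap of the 6 genes that lay apart. Its log2 fold change in limma was 0.57, with an SE of 0.17 and an adjusted p of 0.133. Its model overlaps Cacna1h on the other strand, a calcium channel gene that read 1.51 to 4.52 TPM and did not separate the genotypes. Mast cell markers did not follow Tpsg1. The mast cell tryptase Tpsab1 was listed at 0 in all libraries, Tpsb2 read at most 0.42 TPM, and the mast cell protease Mcpt1 read 101.6 TPM in WT replicate 1 and 3.71 to 7.08 TPM elsewhere. Prss32 and Prss30, serine protease genes listed as related to Tpsg1, were more abundant: Prss32 averaged 186 ± 28.6 TPM in WT and 331 ± 68.1 TPM in TLR4ΔIEC, and Prss30 121 ± 32.3 and 272 ± 73.6 TPM. Both read higher in each TLR4ΔIEC library, and neither passed in limma.

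**Figure D2:**
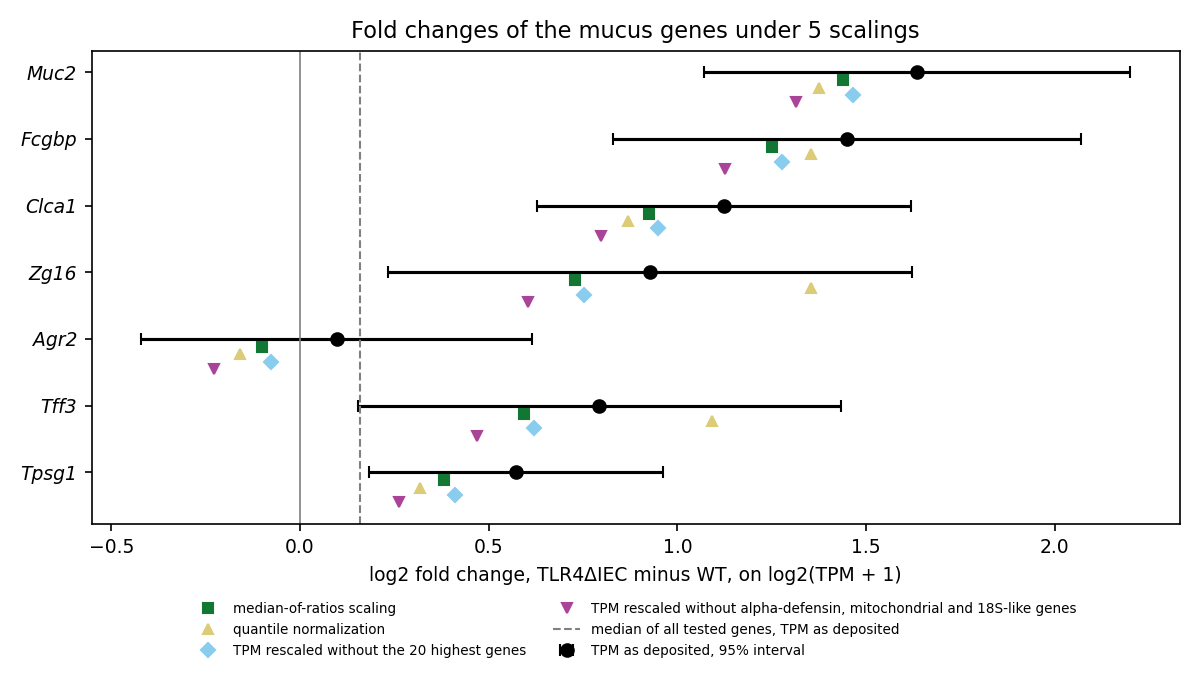
Log2 fold change (TLR4ΔIEC minus WT) of the 7 genes, with black circles and bars for TPM as deposited and its 95% confidence interval, and coloured marks for the 4 other scalings. The dashed line is the median of all tested genes at 0.16, and Agr2 is the only gene whose marks lie on both sides of 0.

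The 6 genes also lay apart under the 4 other scalings, but Tpsg1 overlapped after the division by an epithelial mean that is described below. The 95% confidence intervals of Zg16, Tff3 and Tpsg1 included 0 under median-of-ratios scaling. They also did so with TPM rescaled without alpha-defensin, mitochondrial and 18S-like genes. With the 4 other scalings, in the order given above, the same count of 6 lay apart and higher, while the share of all genes that did so dropped to 9.70%, 11.1%, 13.6% and 6.35%. The median log2 fold change of the 7 was then 0.73, 1.09, 0.75 and 0.60. Without TLR4ΔIEC replicate 2 the count could not fall below 6, since leaving a library out keeps separate groups apart. The share of all genes that lay apart and higher was then 36.2%.

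The upstream sequences of Muc2 and Fcgbp, which had the highest fold changes, and of Agr2, whose groups overlapped, are printed for comparison. They are the 250 bases before the start site in RefSeq (GRCm38.p6), all on the plus strand, at chr7:141690090-141690339, chr7:28070986-28071235 and chr12:35992675-35992924. The table of promoters held 4 of the 7 genes. Capitals mark, on either strand, CAGNTG (an E-box form bound by basic helix-loop-helix factors such as Atoh1), CACCC (bound by Klf factors) and GATAA (bound by Gata factors).
Muc2: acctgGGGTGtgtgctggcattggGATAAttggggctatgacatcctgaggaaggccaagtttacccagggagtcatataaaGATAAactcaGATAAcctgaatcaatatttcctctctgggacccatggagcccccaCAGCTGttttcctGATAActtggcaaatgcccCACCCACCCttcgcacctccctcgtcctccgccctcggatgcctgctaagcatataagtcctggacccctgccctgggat
Fcgbp: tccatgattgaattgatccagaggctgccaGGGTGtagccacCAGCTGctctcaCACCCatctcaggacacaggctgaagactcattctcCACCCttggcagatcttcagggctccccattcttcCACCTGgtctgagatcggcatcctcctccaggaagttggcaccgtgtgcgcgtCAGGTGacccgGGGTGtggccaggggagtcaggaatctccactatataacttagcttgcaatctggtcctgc
Agr2: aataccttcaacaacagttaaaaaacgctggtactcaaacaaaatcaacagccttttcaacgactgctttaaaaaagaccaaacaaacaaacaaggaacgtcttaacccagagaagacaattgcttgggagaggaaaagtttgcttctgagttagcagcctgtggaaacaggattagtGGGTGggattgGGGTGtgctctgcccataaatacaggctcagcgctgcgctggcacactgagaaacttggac
Muc2 held 1 CAGNTG, 3 CACCC and 4 GATAA matches, and 2 of its CACCC matches share a base. Fcgbp held 3 CAGNTG and 4 CACCC matches and no GATAA. Agr2 held 2 CACCC matches alone. Tpsg1, at its upstream start site, held 2 CACCC matches and 1 GATAA match. Of 32851 such windows in the table, 44.8% held CAGNTG, 52.0% held CACCC and 22.6% held GATAA somewhere on either strand. The letters ACGTG (16.6% of all windows) and the NF-kB type GGGANNNNCC (17.6%) had no match in the windows of these 4 genes. Letter matches are a description of the sequence, and no binding was measured.

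Ratios between members within a library are left as they are when a library is multiplied by a factor, but not by quantile normalization, under which Muc2 and Zg16 had log2 fold changes of 1.37 and 1.35. The ratios below are of TPM as deposited. Their summed level was 0.956% to 1.09% of all TPM in WT and 1.64% to 2.56% in TLR4ΔIEC. Muc2 made up 1.02 ± 0.144% of that sum in WT and 1.69 ± 0.150% in TLR4ΔIEC (SD, n = 3 each), and Fcgbp 7.06 ± 0.444% and 10.5 ± 2.85%. Agr2 made up 6.52 ± 1.21% and 3.85 ± 1.48%, and Tff3 33.4 ± 0.822% and 30.8 ± 1.11%. Zg16 kept close to the same share, at 47.6 ± 1.71% and 48.2 ± 1.94%. The share of a gene also depends on the other 6, so a lower share of Tff3 stands beside a higher TPM.

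Of the 21 pairs of members, 12 had TPM ratios that lay apart between the genotypes. Each of these 12 had an exact two-sided permutation p of 0.1, the smallest possible, and a Benjamini-Hochberg adjusted p of 0.175 over the 21 pairs, so no pair passed. The ratio of Muc2 to Agr2 was 0.231, 0.131 and 0.128 in WT and 0.337, 0.648 and 0.445 in TLR4ΔIEC. It was the pair with the greatest difference, 1.55 on the log2 scale. The ratio of Muc2 to Fcgbp, the main components of the gel, ran from 0.123 to 0.176 in WT and from 0.114 to 0.229 in TLR4ΔIEC, so it overlapped. The ratio of Zg16 to Tff3 was among the 12 that lay apart, higher in TLR4ΔIEC by 0.13 on the log2 scale, at 1.49, 1.36 and 1.44 in WT and 1.53, 1.59 and 1.58 in TLR4ΔIEC.

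Genes of the epithelium as a whole also read higher in TLR4ΔIEC. Of 12 general epithelial genes, 11 lay apart and higher, against 24.1% of all tested genes, and none passed in limma. Their median log2 fold change was 0.55, against 0.16 over all genes. Krt8, a keratin, averaged 2856 ± 202 TPM in WT and 4127 ± 858 TPM in TLR4ΔIEC, the lectin Lgals4 2276 ± 179.6 and 2879 ± 367 TPM, and the keratin Krt19 1575 ± 245 and 2353 ± 393 TPM. The count of 11 was 5, 8, 8 and 4 under the 4 other scalings in the order above. The matching shares of all tested genes were 9.70%, 11.1%, 13.6% and 6.35%. The mean of the 12 was 925 ± 56.5 TPM in WT and 1339 ± 201 TPM in TLR4ΔIEC, a ratio of 1.45.

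Set against that epithelial mean, the mucus genes separated into groups. Muc2 was at 13.2, 9.65 and 10.8% of it in WT and at 24.8, 27.3 and 20.9% in TLR4ΔIEC, a ratio of means of 2.17. Fcgbp was at 75.1, 78.2 and 79.2% in WT and 108.3, 159.8 and 184.2% in TLR4ΔIEC, a ratio of 1.95. Clca1, Zg16 and Tff3 had ratios of 1.49, 1.33 and 1.21 and still lay apart, although Clca1 by little, at 60.3% in WT replicate 3 and 60.6% in TLR4ΔIEC replicate 2. Tpsg1 overlapped, at 2.00 to 2.32% in WT and 2.10 to 2.42% in TLR4ΔIEC, and so did Agr2, with a ratio of 0.756. Against the epithelial reference 5 of the 7 genes thus lay apart and higher, against 6 by TPM. After the same division 2.56% of all tested genes lay apart and higher and 24.3% lay apart and lower.

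**Figure D3:**
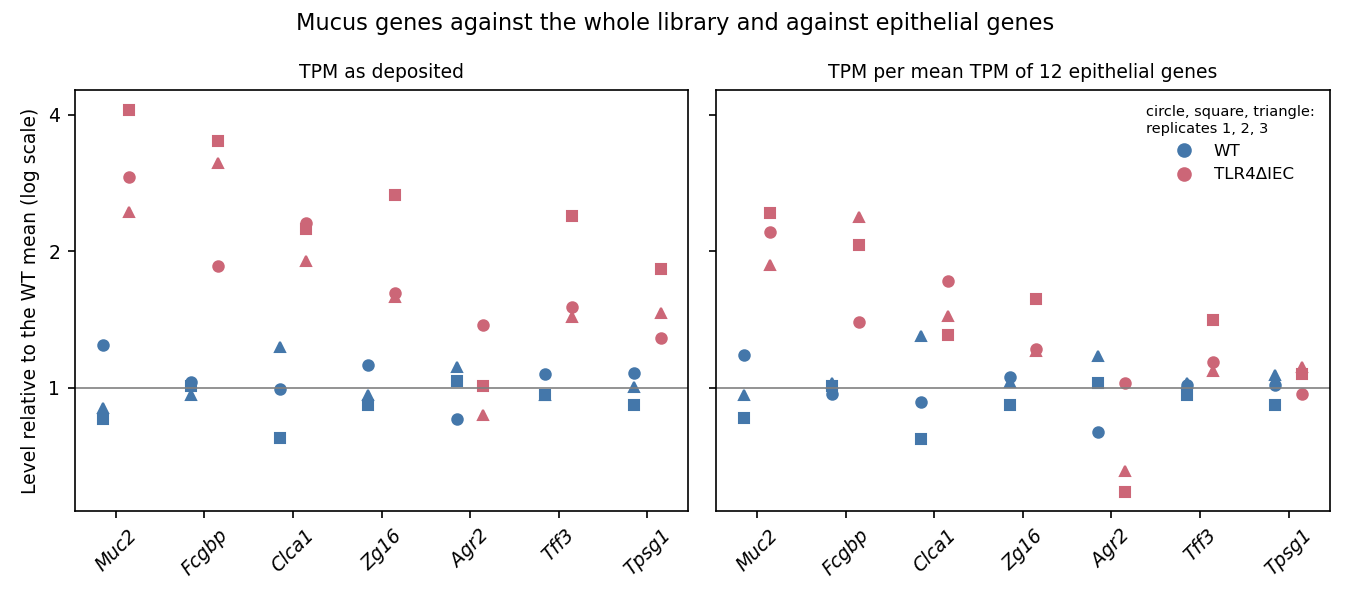
Level of each mucus gene in each library relative to its WT mean on a log axis, by TPM at the left and after division by the mean TPM of 12 epithelial genes at the right; blue is WT, red is TLR4ΔIEC, and circles, squares and triangles are replicates 1, 2 and 3. Muc2 and Fcgbp remain apart at the right with ratios of means of 2.17 and 1.95, while Tpsg1 and Agr2 overlap.

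Other markers of goblet cells were read beside the secreted mucus genes. Of 22 listed, 21 were tested, none passed in limma, 4 lay apart and higher, and 17 overlapped. That share is near the 24.1% of all tested genes, and the median log2 fold change of 0.17 is near the 0.16 of all genes. In 16 of the 21 the log2 fold change was positive. Spink4, a secreted protease inhibitor that is among the most abundant goblet cell transcripts, was at 2635, 2678 and 2659.71 TPM in WT, while TLR4ΔIEC libraries were at 2685, 1522 and 1897 TPM (log2 fold change −0.43, limma adjusted p = 0.377). Guca2a, which encodes guanylin, was among the 4 that lay apart, at 926 ± 102 and 1669 ± 395 TPM, as was Oit1, at 94.5 ± 20.6 and 169 ± 28.8 TPM. Under each of the 4 other scalings 2 lay apart and higher and 1 lower, and the median was below 0, at −0.15 in the lowest case. In the order above, 9.70%, 11.1%, 13.6% and 6.35% of all 13458 tested genes then lay higher, and 1325, 1149, 890 and 1728 genes lower.

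The transcription factors that direct secretory cells overlapped in most cases. Of 14 tested, none passed in limma and 3 lay apart and higher, a share near the 24.1% of all tested genes. The count of 3 was 1, 1, 2 and 1 under the 4 other scalings in the order above, beside 9.70%, 11.1%, 13.6% and 6.35% of all tested genes. The list had a median of 0.24 that turned to −0.04 with TPM rescaled without alpha-defensin, mitochondrial and 18S-like genes. Spdef, which drives goblet cell maturation, was at 17.7, 16.9 and 17.8 TPM in WT, while TLR4ΔIEC libraries were at 22.1, 22.0 and 14.6 TPM. Atoh1, needed for all secretory cells, read 19.8, 16.6 and 17.5 TPM and 23.9, 28.2 and 15.4 TPM. In both, TLR4ΔIEC replicate 3 was the lowest of all 6 libraries, while Muc2 and Fcgbp lay above every WT library in it. Foxa3 averaged 10.9 ± 0.407 and 12.6 ± 3.81 TPM, and Creb3l1, a factor of the secretory pathway, 12.8 ± 4.09 and 16.1 ± 4.11 TPM. Klf4, a factor of goblet and surface cells, lay apart at 94.5 ± 6.51 and 134 ± 17.1 TPM, as did the epithelial factor Elf3 at 173 ± 15.8 and 325 ± 94.3 TPM, and Xbp1 overlapped.

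**Figure D4:**
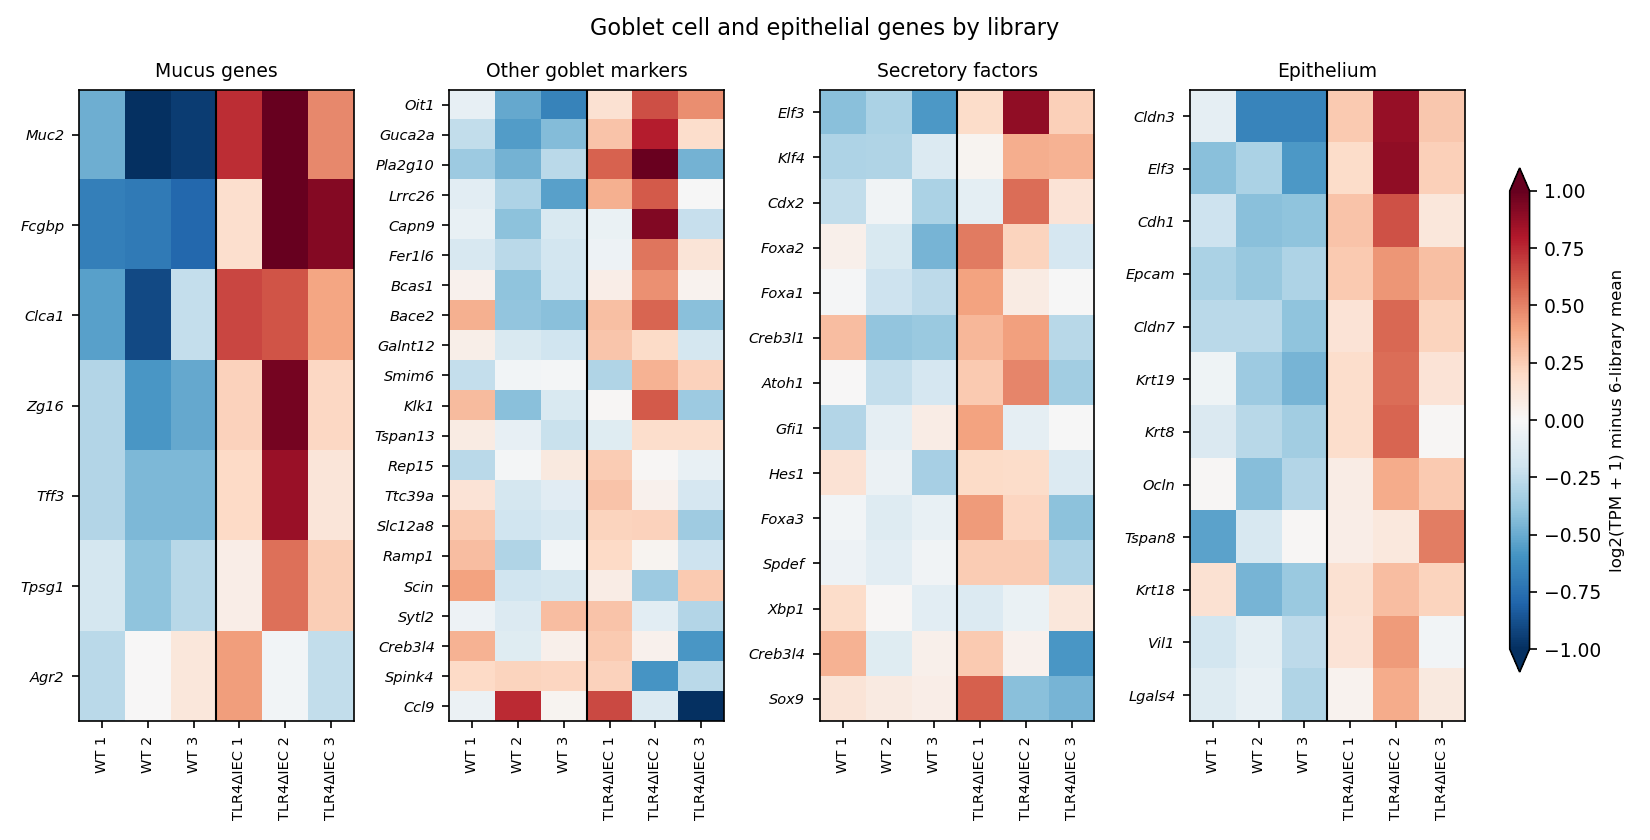
Log2(TPM + 1) of each gene in each library minus its mean over the 6 libraries, for the 7 mucus genes, 21 other goblet markers, 14 secretory transcription factors and 12 epithelial genes, sorted by fold change, with WT at the left of each black line. Red is above and blue below the mean of the 6 libraries, the colours end at −1 and 1, and TLR4ΔIEC replicate 2 is the reddest column among the mucus and epithelial genes.

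The machinery that folds, glycosylates and releases mucin was examined from lists of its genes. Of 32 folding and secretory pathway genes, none passed in limma, 7 lay apart and higher and 2 lower, a share of higher genes near the 24.1% of all tested genes, and the median was 0.11. Under the 4 other scalings, in the order above, 1, 1, 1 and 0 lay higher and 4 lay lower under each. Of all 13458 tested genes 1325, 1149, 890 and 1728 then lay lower, and 9.70%, 11.1%, 13.6% and 6.35% higher. The disulphide isomerase P4hb averaged 645 ± 79.1 and 621 ± 209.99 TPM, the chaperone Calr 438 ± 33.1 and 612 ± 179.6 TPM, and Sec61b, of the translocation channel, 286 ± 14.7 and 349 ± 41.1 TPM. Ern2, a stress sensor of goblet cells, read 6.73 to 8.89 TPM in WT and 4.72 to 10.03 TPM in TLR4ΔIEC. Under each of the 4 other scalings the median of this list was negative (−0.21 to −0.06).

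Among 31 tested genes of mucin O-glycosylation 17 lay apart and higher and 2 lower, and none passed in limma, with a median of 0.36. Over all tested genes 24.1% lay apart and higher and 3.53% apart and lower. The count of 17 was 8, 6, 9 and 3 under the other scalings in the same order. The shares of all tested genes that lay higher were then 9.70%, 11.1%, 13.6% and 6.35%. The sialyltransferase St3gal4 averaged 1495 ± 47.3 and 1834 ± 382 TPM, B4galnt2, which adds a terminal N-acetylgalactosamine, 151.1 ± 25.1 and 227 ± 28.1 TPM, and the sulphotransferase Gal3st2 95.2 ± 12.2 and 167 ± 13.4 TPM. Of 23 genes of mucus release, hydration and processing, 7 lay apart and higher and 1 lower, and none passed, where 24.1% of all tested genes lay higher. The count of 7 was 3, 3, 5 and 3 under the other scalings, beside the same 4 shares of all tested genes as above. The list had a median of 0.29 that turned to −0.036 with TPM rescaled without alpha-defensin, mitochondrial and 18S-like genes. Mep1b, the meprin that cleaves Muc2 for its release in the small intestine, averaged 495 ± 33.7 and 716 ± 110.1 TPM, its partner Mep1a 235 ± 59.6 and 603 ± 169 TPM, and Guca2b, which encodes uroguanylin, 1157 ± 279 and 1401 ± 349.8 TPM.

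Genes of mucus in other regions were also read. The 7 stomach and Brunner gland genes in the table, Muc5ac among them, summed to at most 0.82 TPM in any library. Of 16 genes listed for colonic goblet cells and colon, 11 reached a mean of 1 TPM, and some are also expressed in the small intestine. Ang4, which is also among the Paneth cell genes below, was the most abundant, at 2667 ± 501 TPM in WT and 588 ± 694 TPM in TLR4ΔIEC. Next came Muc3, at 480.2 ± 29.4 and 1209.9 ± 405.6 TPM, and Clca4b. Best2, a channel of colonic goblet cells, read at most 0.10 TPM, and Retnlb, the goblet cell product RELMβ, read 5.33 to 11.1 TPM in WT and 13.9, 0.00 and 1.08 TPM in TLR4ΔIEC. Markers of position along the small intestine differed between the same libraries. The summed level of 12 ileal genes was 5411 to 10015 TPM in WT and 14364 to 41553 TPM in TLR4ΔIEC, with 10 of 12 apart and higher. That of 11 proximal genes was 659.9 to 1890.2 TPM and 262 to 358 TPM. Of the 9 proximal genes tested, 6 lay apart and lower and 2 apart and higher. Over all tested genes 24.1% lay apart and higher and 3.53% apart and lower. Under the 4 other scalings, in the order above, the ileal count of 10 was 9, 9, 10 and 9. Of all tested genes 9.70%, 11.1%, 13.6% and 6.35% then lay higher. The proximal counts stayed at 6 and 2, while 1325, 1149, 890 and 1728 of all 13458 genes lay lower. In limma the proximal genes Lct (lactase), Apoa4 and Gata4 passed as lower in TLR4ΔIEC (adjusted p = 0.0316, 0.0350 and 0.0494). S100g, also of the proximal list, passed as higher (limma adjusted p = 0.0350). Among other cell types, the summed level of 20 Paneth cell genes was 156630.0 to 177513 TPM in WT and 41198 to 116440.0 TPM in TLR4ΔIEC. Of these 20 genes, 14 lay apart and lower and 1 apart and higher. The summed level of 14 plasma and B cell genes was 8630.1 to 9824 TPM in WT and 1409 to 4681 TPM in TLR4ΔIEC. Their log2 fold changes were positive in 7 and negative in 7, with a median of 0.15, and 6 lay apart and lower and 1 higher. No gene of these 2 lists passed in limma. The parts of intestinal segment, Paneth cells and immune cells in the values of the mucus genes were not tested.

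For each mucus gene, the genes of most similar pattern over the 6 libraries were found by Pearson's r of log2(TPM + 1) among genes of at least 10 TPM on average. All 6 points share the genotype and library effects of this tissue, so that r describes these libraries alone. Fam20b and Cnnm4 were nearest to Muc2 (r = 0.997 and 0.996). Vamp8, the SNARE protein of granule release, was nearest to Fcgbp (r = 0.998), followed by H2-T3 and Nlrc4, and Klf6, Etfbkmt and Muc3a were nearest to Clca1 (r = 0.986, 0.984 and 0.983). Coa4 and Tff3 were nearest to Zg16 (r = 0.999 and 0.996), with Guca2a next, and Ms4a18, Sel1l3 and Coa4 to Tff3. Ier5, Prr15l and Ipmk were nearest to Tpsg1, and Tnks1bp1, Ptk2 and Tmed5 to Agr2 (r = 0.968, 0.968 and 0.963).

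Among 6429 candidate genes Tff3 held place 2 in the order of likeness to Zg16, and Zg16 place 4 in that to Tff3. Other members were farther apart: in the order of likeness to Muc2, Zg16 held place 174 (r = 0.970), Clca1 place 715 and Fcgbp place 756 (r = 0.918). Agr2 held place 4725 in that order (r = 0.142), and its r with any of the other 6 ran from −0.091 to 0.334.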

How the data were processed

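The 6 libraries of total RNA were grouped by the sample titles. Tools named in the submitters' processing notes are RSEM, HISAT and fastp, with build GRCm38.p5. Their versions and settings, and strand, are not given in the sources used here. As values, the authors deposited TPM per gene, per the file headers, with gene length, and with group means that were not used. Read depth is unknown, so no counting error is given. Without strand, overlapping genes on opposite strands cannot be told apart.

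The 13458 genes whose mean reached 1 TPM entered limma (version 3.58.1, R 4.3.3) as log2(TPM + 1), with genotype as the term and a trended eBayes step, two-sided, and Benjamini-Hochberg adjustment at 0.05 over all tested genes. Log2 fold changes are TLR4ΔIEC minus WT and understate changes of low genes. Lying apart means that all 3 libraries of a genotype exceed all 3 of the other. No label ties the samples to separate mice, so p-values measure only the spread between these samples, which may be technical. The fit was tested on simulated data. Libraries were not copies of each other: correlations within a genotype were 0.939 to 0.977.

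The members and the 25 gene lists were chosen with earlier results of these data known. Named genes are the 7 members, Tlr4, the members of each described list past the threshold filled to 3 by mean TPM, a set of genes with known ties to goblet cells, and the 3 most similar genes per member, of which 1 is not reported here. Relatives that could share reads with a member, Clca3a2, Gata4 and the overlapping genes were named after their values were seen. 18S-like genes are Rn18s, Cmss1 and Gphn. Rescaled TPM keep all genes and change the library total alone. Coordinates are from GENCODE M21 and upstream sequences from RefSeq.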

Additional observations from a re-analysis of the deposited data

How the results depend on the processing

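The 6 genes other than Agr2 kept a positive log2 fold change in all 18 alternatives, with ranges of 1.31 to 1.80 for Muc2, 1.13 to 1.73 for Fcgbp, 0.80 to 1.29 for Clca1, 0.60 to 1.35 for Zg16, 0.47 to 1.09 for Tff3 and 0.26 to 0.68 for Tpsg1. The count of members that lay apart stayed at 6 under the 4 other scalings. The remaining alternatives keep the order of the libraries or leave a library out, so they could not lower this count. Members past the threshold were 0 in limma with TPM as deposited, with 6 at an unadjusted p under 0.05. That count of 6 was 3 under median-of-ratios scaling, 5 under quantile normalization, 3 without alpha-defensin, mitochondrial and 18S-like genes, 4 with no filter and 4 to 6 with single libraries left out. Over all tested genes the same limma threshold gave 2847 of 13458 with TPM as deposited. It gave 1674, 1767 and 1611 of 13458 under those 3 scalings, and 3377 of 26866 with no filter. With single libraries left out it gave 1619 to 3662 of 13379 to 13583 genes. Members past the threshold were 2 with array weights, Muc2 at 1.60 and Fcgbp at 1.47 (limma adjusted p = 0.0406 each), where 136 of 13458 genes passed. Leaving out single libraries gave 0 to 2 such members: Muc2 (1.67) and Fcgbp (1.73) passed without TLR4ΔIEC replicate 1, where 367 of 13379 genes passed. Over the libraries left out, log2 fold changes of Muc2 ran from 1.43 to 1.80 and of Fcgbp from 1.27 to 1.73.

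Agr2 turned to −0.10 under median-of-ratios scaling, −0.16 under quantile normalization, −0.077 without the 20 highest genes, −0.23 without alpha-defensin, mitochondrial and 18S-like genes and −0.011 with array weights, and ran from −0.088 to 0.24 with single libraries left out (−0.012 without WT replicate 1, −0.088 without TLR4ΔIEC replicate 1). The cause was not tested. In mean log2 TPM against the epithelial genes Agr2 was at −0.43, and as a share of the 7 genes Agr2 was at −0.81, Tff3 at −0.12 and Tpsg1 at −0.32.

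Genes past the threshold in limma numbered 16, 0 with no filter (3377 at an unadjusted p under 0.05), 7 at a mean of at least 5 TPM, 10 without alpha-defensin, mitochondrial and 18S-like genes and 136 with array weights. They numbered 0 to 367 with single libraries left out: 367 without TLR4ΔIEC replicate 1, 5 without TLR4ΔIEC replicate 3, 32 and 3 without WT replicates 1 and 3, and 0 without WT replicate 2 or TLR4ΔIEC replicate 2 (1681 and 2651 at an unadjusted p under 0.05). With the replicate number as a block 1 gene passed and no member. Same-numbered libraries had correlations of −0.037, 0.035 and 0.118 in their deviations from the group means. With 3 libraries per genotype these values cannot settle whether the numbers pair samples. TPM keep no depth, which limits what can be said of genes near 0.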

Other observations

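A list of type 2 cytokines, their receptors and related genes was examined that no comparison above uses. IL-4 and IL-13 are known to raise goblet cell mucus genes. Their genes were near 0: Il13 read at most 0.17 TPM and Il4 at most 0.24 TPM in any library. Of 5 tested genes of the list, 3 lay apart and higher (Il4ra, Stat6 and the IL-22 receptor gene Il22ra1) and 1 lower (the cytokine gene Il33), and none passed in limma, where 24.1% of all tested genes lay apart and higher. The count of 3 was 1, 2, 1 and 1 under the 4 other scalings in the order of the report. The shares of all tested genes that lay higher were then 9.70%, 11.1%, 13.6% and 6.35%. Il22ra1 and Il33 were named after their values were seen. Il4ra, the shared receptor chain, was at 16.8, 19.7 and 16.7 TPM in WT, while TLR4ΔIEC libraries were at 31.6, 25.6 and 29.9 TPM (log2 fold change 0.68, limma adjusted p = 0.0955). Il13ra1 overlapped, at 23.7 to 33.6 and 31.0 to 50.06 TPM, and Stat6, the factor below both, averaged 35.8 ± 2.58 and 42.4 ± 3.35 TPM.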
